A study of Homo sapiens with 6 samples.

Results

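The chemokine CXCL12, its 2 receptors CXCR4 and ACKR3 and the protease DPP4 are described here in WPMY-1 cells, an immortalised stromal line of the human normal prostate. These 4 genes were taken by name from the 33117 gene rows of the deposited table, and they were chosen by their measured levels in the comparison given here. Their levels and differences are therefore a description, and no test is given for them. There were 3 shCAVIN1 libraries, from cells that carried a lentiviral short hairpin RNA against CAVIN1 (also called PTRF), and 3 shCtrl libraries, from cells that carried the pLKO1 control plasmid. Both groups were WPMY-1 cells, transduced with virus made in HEK293T cells, a human packaging line, and kept as stable lines under puromycin. A single hairpin was used, and the labels do not say whether the replicates came from separate transductions or clones, so a p-value reflects library-to-library spread alone, which may be technical. CAVIN1 helps to shape caveolae, small flask-like folds of the cell membrane, and the comparison asks which genes differ once it is depleted.

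CXCL12 is a chemokine that stromal cells secrete and that guides the migration and retention of cells bearing its receptors. CXCR4 is the receptor that passes the CXCL12 signal on through inhibitory G proteins, while ACKR3, an atypical receptor, binds the same ligand, couples to arrestins and clears the ligand from the surroundings. DPP4, also called CD26, is a membrane protease that removes a dipeptide ending in proline from the start of CXCL12, after which the chemokine no longer activates CXCR4. In the prostate, as in other organs, CXCL12 is known as a product of fibroblasts and smooth muscle cells.

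On GRCh38 in GENCODE 29, CXCL12 occupies bases 44370165 to 44386493 of chromosome 10 and is read from the minus strand. The other 3 genes lie on chromosome 2. CXCR4 is at 136114349 to 136118165 and DPP4 at 161992241 to 162074542, both on the minus strand, and ACKR3 is at 236567787 to 236582358 on the plus strand. GENCODE 29 places no other gene over CXCL12, CXCR4 or ACKR3, and an antisense RNA gene without a row in the table over the start of DPP4. Each gene has a single row, so the splice forms of CXCL12 are not told apart.

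Start regions from a table of RefSeq promoters (GRCh38.p14) were matched to 3 of the 4 genes, CXCL12, CXCR4 and DPP4, and that of ACKR3 was not analysed here. They are printed because CXCL12 and CXCR4 were both lower in shCAVIN1 and DPP4 was higher. Each run reads 5′ to 3′ on the strand of the gene, from 250 bases before the start to 50 bases after it, at chr10:44385048-44385347 for CXCL12, chr2:136118100-136118399 for CXCR4 (the most upstream of its 3 listed starts) and chr2:162074166-162074465 for DPP4. Capitals mark matches on either strand to the GC box GGGCGG, the TATA box TATAAA, the core ACGTG of sites for hypoxia-inducible factors and the core GCATGC of sites for the factor NRF1.
CXCL12: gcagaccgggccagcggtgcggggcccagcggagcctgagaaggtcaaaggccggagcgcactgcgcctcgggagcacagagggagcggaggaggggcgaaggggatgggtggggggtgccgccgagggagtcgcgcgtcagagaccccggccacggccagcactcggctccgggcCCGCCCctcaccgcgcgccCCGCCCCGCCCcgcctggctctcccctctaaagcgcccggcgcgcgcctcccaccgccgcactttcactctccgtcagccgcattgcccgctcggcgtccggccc
CXCR4: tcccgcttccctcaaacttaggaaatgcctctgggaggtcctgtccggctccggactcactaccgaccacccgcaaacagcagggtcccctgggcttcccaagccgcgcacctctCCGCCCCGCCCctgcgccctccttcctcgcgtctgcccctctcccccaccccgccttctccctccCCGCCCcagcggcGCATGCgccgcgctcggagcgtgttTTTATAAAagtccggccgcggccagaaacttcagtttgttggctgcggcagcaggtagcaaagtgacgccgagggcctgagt
DPP4: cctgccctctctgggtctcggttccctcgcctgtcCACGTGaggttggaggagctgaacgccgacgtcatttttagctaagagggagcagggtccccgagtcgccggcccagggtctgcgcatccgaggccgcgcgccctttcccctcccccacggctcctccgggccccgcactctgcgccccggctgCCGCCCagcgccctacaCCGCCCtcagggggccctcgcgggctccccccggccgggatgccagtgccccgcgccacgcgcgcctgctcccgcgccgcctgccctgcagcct

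The CXCL12 run was the richest in G and C, at 77.0%, against 66.7% for CXCR4, 75.0% for DPP4 and a median of 58.7% over 35116 RefSeq start regions. It held 3 GC boxes, at -74, -55 and -50 (the first base of the match, counted from the start), and none of the other motifs. The CXCR4 run held 3 GC boxes, at -135, -130 and -70, an overlapping pair of TATA matches at -32 and -30, and 1 NRF1 core at -57. The DPP4 run held 2 GC boxes, at -61 and -44, and an overlapping pair of hypoxia cores at -215 and -214. Over all the start regions, 45.0% held a GC box, 11.5% a TATA box, 21.4% a hypoxia core and 7.22% an NRF1 core. These matches describe letters only and say nothing about binding.

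Levels are FPKM, fragment counts scaled by transcript length and library size, which are comparable between genes because they are divided by length. Absolute depth is unknown. The lowest nonzero values give relative depths of 0.69 to 1.13 times that of shCtrl replicate 2, an estimate that takes them for single fragments. The targeted gene stood at 134, 139 and 150 FPKM in shCAVIN1 replicates 1 to 3, against 330, 347 and 330 FPKM in shCtrl replicates 1 to 3. All 9 stromal markers reached 1 FPKM in at least 1 library, and they summed to between 875 and 890 FPKM in shCAVIN1 and between 1439 and 1599 FPKM in shCtrl. The 6 endothelial markers summed to 1.18 to 1.34 FPKM in shCAVIN1 and 0.439 to 0.885 FPKM in shCtrl. CD3E, of T cells, and KLK3, of prostate epithelium, were listed at 0 in all 6 libraries. Each was the only marker of the 6 in its list at 0 throughout. CD14, of the leukocyte list, reached 1.35 FPKM and EPCAM, of the epithelial list, 0.567 FPKM, both in shCtrl libraries.

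CXCL12, the ligand, differed most of the 4 genes. It stood at 2.79, 2.38 and 1.91 FPKM in shCAVIN1 replicates 1 to 3, against 31.0, 29.8 and 28.2 FPKM in shCtrl replicates 1 to 3. The groups were far apart, with the lowest shCtrl library 10.1 times the highest shCAVIN1 library. The mean was 2.36 ± 0.438 FPKM in shCAVIN1 and 29.7 ± 1.37 FPKM in shCtrl (SD, n = 3 each), which left CXCL12 at 7.95% of its shCtrl level. The difference was -3.41 on the log2(FPKM + 0.5) scale, a scale that understates differences of low genes, and -3.65 as the log2 of the ratio of mean FPKM. In bulk RNA, fewer cells that make a transcript and less of it per cell cannot be told apart. The summed level of the 9 stromal markers was also lower in shCAVIN1, and 6 of the 9 were lower in every shCAVIN1 library than in any shCtrl library. Over all genes with a mean of at least 0.5 FPKM, the groups did not overlap, in either direction, for 64.6%. VIM (283 to 310 FPKM in shCAVIN1 and 252 to 309 FPKM in shCtrl), PDGFRB (13.8 to 14.7 and 12.4 to 14.8 FPKM) and COL1A1 (35.5 to 68.7 and 54.5 to 102 FPKM) overlapped between the groups. The part of these markers in the result was not tested.

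Among the 13941 genes with a mean of at least 0.5 FPKM over the 6 libraries, 60, CXCL12 included, had a log2 difference as low as its own or lower. CXCL12 ranked between 10369 and 11173 from the top of the 33117 rows in the shCAVIN1 libraries and between 2506 and 2795 in the shCtrl libraries. In relative terms it also varied more among shCAVIN1 libraries, where the highest was 1.46 times the lowest, than among shCtrl libraries, where it was 1.10 times the lowest.

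CXCR4, the signalling receptor, was a low-level gene in both groups. It stood at 0.826, 1.12 and 0.908 FPKM in shCAVIN1 replicates 1 to 3, against 1.85, 2.44 and 2.25 FPKM in shCtrl replicates 1 to 3. All 3 shCAVIN1 libraries were below all 3 shCtrl libraries. The mean was 0.951 ± 0.15 FPKM in shCAVIN1 and 2.18 ± 0.301 FPKM in shCtrl (SD, n = 3 each), or 43.6% of the shCtrl level, a log2 difference of -0.88. Without the pseudocount, the log2 of the ratio of means was -1.20. CXCR4 is also abundant in blood leukocytes. PTPRC, the marker that all leukocytes share, stood at 0.128 to 0.148 FPKM in shCAVIN1 and 0.0236 to 0.0655 FPKM in shCtrl, so it was lower where CXCR4 was higher. The sum of all 6 leukocyte markers did go the way of CXCR4, at 0.827 to 1.13 FPKM in shCAVIN1 and 1.47 to 1.90 FPKM in shCtrl, with CD14 as the only one to reach 1 FPKM, and its part in the result was not tested.

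ACKR3, the scavenging receptor, had the smallest difference of the 4 genes. It stood at 5.35, 5.46 and 5.34 FPKM in shCAVIN1 replicates 1 to 3, against 8.65, 9.77 and 7.70 FPKM in shCtrl replicates 1 to 3. The shCAVIN1 libraries lay within 1.02 times of each other and all below the shCtrl libraries, whose highest was 1.27 times the lowest. The mean was 5.38 ± 0.0635 FPKM in shCAVIN1 and 8.71 ± 1.03 FPKM in shCtrl (SD, n = 3 each), or 61.8% of the shCtrl level, a log2 difference of -0.64.

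DPP4, the protease, moved the other way. It stood at 1.43, 1.60 and 1.55 FPKM in shCAVIN1 replicates 1 to 3, against 0.570, 0.542 and 0.483 FPKM in shCtrl replicates 1 to 3. The lowest shCAVIN1 library was 2.52 times the highest shCtrl library. The mean was 1.53 ± 0.0845 FPKM in shCAVIN1 and 0.532 ± 0.0442 FPKM in shCtrl (SD, n = 3 each), a ratio of 2.87. At these levels the log2 difference depends on the pseudocount, at 0.98 with 0.5 added and 1.52 as the log2 of the ratio of means. DPP4 is also made by endothelial and epithelial cells. The endothelial marker PECAM1 stayed at or below 0.0402 FPKM in shCAVIN1 and 0.0683 FPKM in shCtrl, and the epithelial marker CDH1 at or below 0.0642 FPKM in shCAVIN1 and 0.0678 FPKM in shCtrl. EPCAM, another epithelial marker, stood above CDH1, at 0.282 to 0.394 FPKM in shCAVIN1 and 0.356 to 0.567 FPKM in shCtrl. The sum of the 6 endothelial markers went the way of DPP4, and most of it in shCAVIN1 was TEK (0.923 to 0.958 FPKM in shCAVIN1 and 0.156 to 0.273 FPKM in shCtrl). CLDN5 went the other way, at 0.0244 to 0.138 FPKM in shCAVIN1 and 0.180 to 0.512 FPKM in shCtrl. The part of these markers in the result was not tested.

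**Figure D1:**
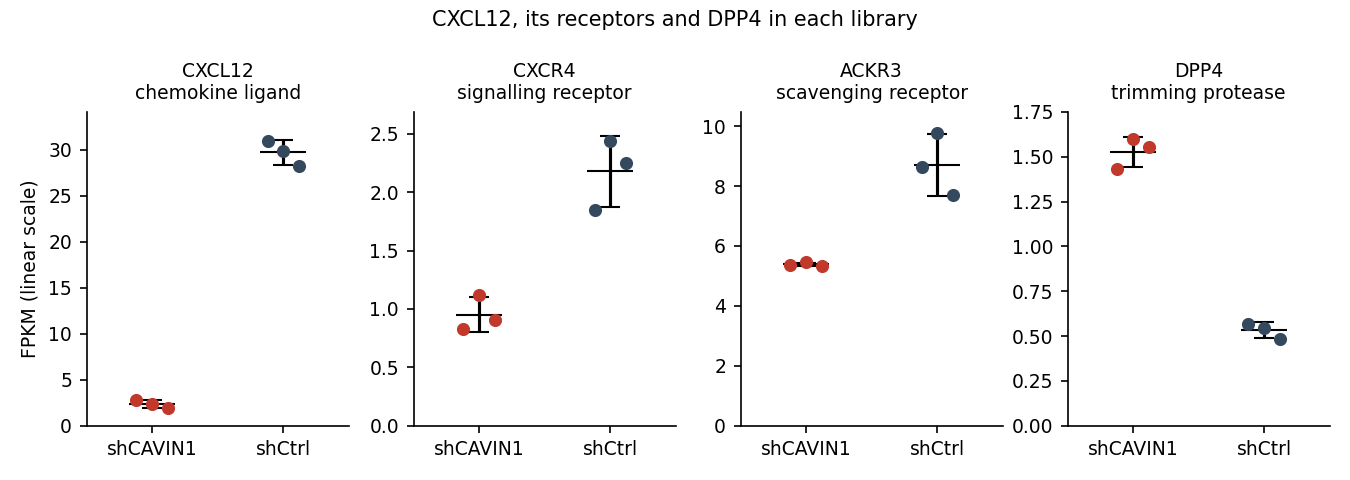
FPKM of CXCL12, CXCR4, ACKR3 and DPP4 (linear axes from 0, a separate scale for each gene) in the 3 shCAVIN1 and the 3 shCtrl libraries, with points for libraries and bars for the mean and SD. CXCL12, CXCR4 and ACKR3 are lower in every shCAVIN1 library than in any shCtrl library, and DPP4 is higher.

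The libraries of both groups did not overlap for any of the 4 genes, which was also so for 64.6% of all tested genes. By limma on all tested genes, 27.3% were called higher and 28.2% lower in shCAVIN1 at an adjusted p under 0.05. As the 4 genes were chosen on this comparison, nothing is read from their separation. All 4 passed the filter on low values, and DPP4 was the nearest to it, with a mean of 1.03 FPKM over the 6 libraries.

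**Figure D2:**
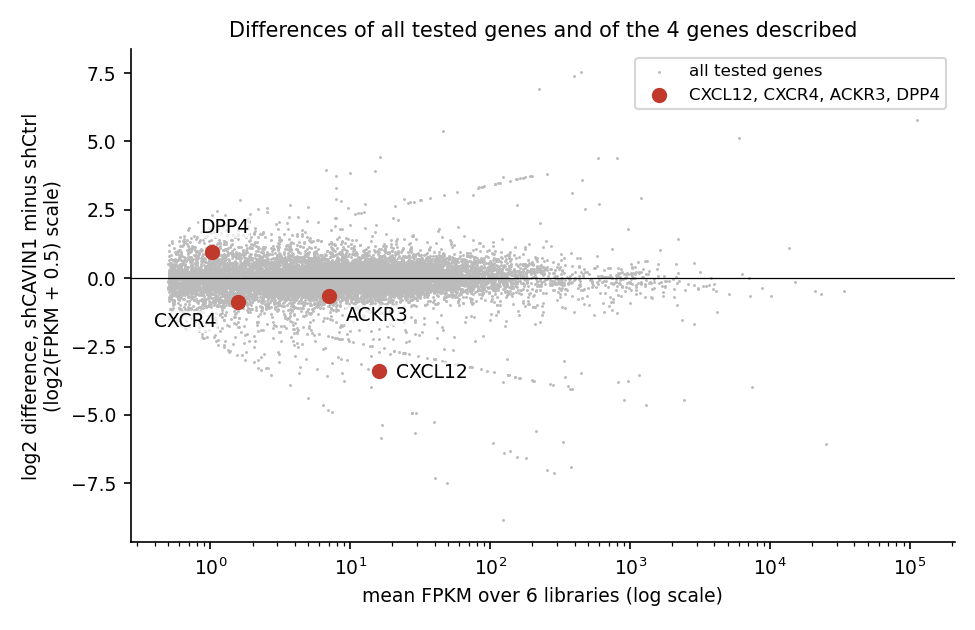
Log2 difference (shCAVIN1 minus shCtrl, log2(FPKM + 0.5) scale) against the mean FPKM over 6 libraries (log axis) for the 13941 tested genes, with the 4 genes in red. CXCL12, at -3.41, lies below the bulk of the genes of similar level, while CXCR4 (-0.88), ACKR3 (-0.64) and DPP4 (0.98) lie nearer to 0.

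The order of the 4 genes by level differed between the groups. In shCAVIN1 the order was ACKR3, CXCL12, DPP4 and CXCR4, with DPP4 at 1.43 to 1.60 FPKM above CXCR4 at 0.826 to 1.12 FPKM. In shCtrl it was CXCL12, ACKR3, CXCR4 and DPP4. Each neighbour in either order was separated from the next in all 3 libraries of its group.

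The ratio of ligand to receptor within a library followed from these levels. Transcripts of CXCL12 stood at 0.358 to 0.521 times those of ACKR3 in shCAVIN1, against 3.05 to 3.67 times in shCtrl. Set against CXCR4, they stood at 2.11 to 3.38 times in shCAVIN1 and 12.2 to 16.8 times in shCtrl. CXCL12 thus remained above CXCR4 in every library, but was below ACKR3 in the 3 shCAVIN1 libraries. ACKR3 stood at 4.88 to 6.47 times CXCR4 in shCAVIN1 and 3.42 to 4.68 times in shCtrl, ranges that do not overlap. The ratio of CXCL12 to DPP4 was 1.23 to 1.94 in shCAVIN1 and 54.4 to 58.4 in shCtrl. These are ratios of RNA and give no measure of secreted chemokine, surface receptor or protease activity.

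A list of 26 chemokine ligands with a row was ranked, which does not hold the whole family. Among these 26, CXCL12 was the most abundant in each shCtrl library and the third in each shCAVIN1 library. It made up 5.01% to 6.91% of their summed FPKM in shCAVIN1 and 58.6% to 65.5% in shCtrl. The sum itself was 38.2 to 40.3 FPKM in shCAVIN1 and 45.7 to 50.9 FPKM in shCtrl. Without CXCL12, the other ligands summed to 36.2 to 37.6 FPKM in shCAVIN1 and 16.3 to 21.1 FPKM in shCtrl. CCL2, which attracts monocytes through CCR2, took the first place in shCAVIN1, at 24.8 ± 0.831 FPKM against 10.9 ± 1.93 FPKM in shCtrl (log2 1.17, SE 0.117, limma adjusted p = 0.000395). CXCL16, the transmembrane ligand of CXCR6, took the second place, at 6.70 ± 0.746 FPKM in shCAVIN1 and 3.77 ± 0.195 FPKM in shCtrl (log2 0.75, limma adjusted p = 0.000747). Besides these 2 rises, CCL5 and CXCL2 were tested and did not pass, beside 27.3% higher and 28.2% lower over all tested genes. The other 21 ligands were below the filter, 7 of them listed at 0 in all 6 libraries.

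**Figure D3:**
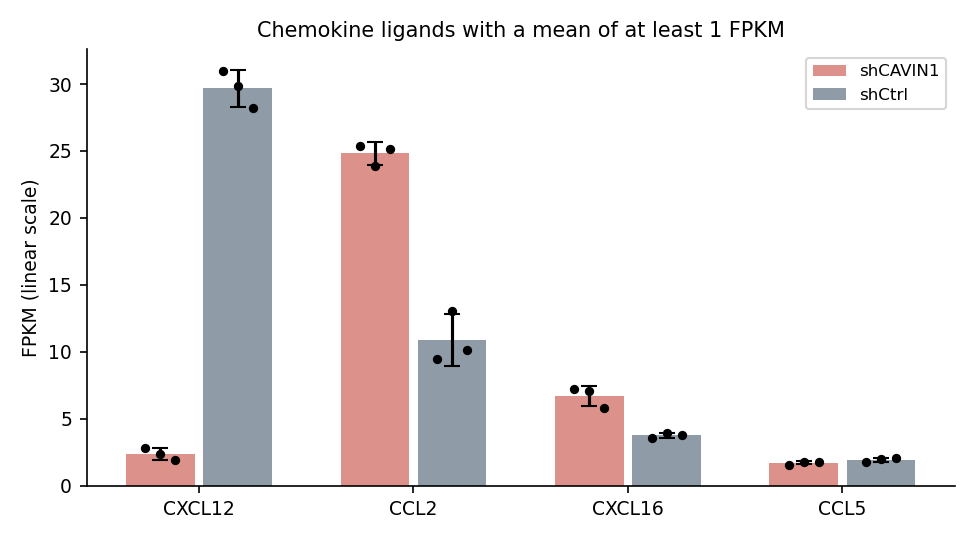
FPKM (linear axis from 0) of the 4 chemokine ligands, among the 26 listed, with a mean of at least 1 FPKM. Bars show group means, error bars the SD and points the 3 libraries. CXCL12 is the tallest in shCtrl (29.7 FPKM) and CCL2 in shCAVIN1 (24.8 FPKM).

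Of 22 other chemokine receptors, CXCR4 and ACKR3 had a single tested companion. CCR10, a receptor known from skin-homing lymphocytes, stood at 26.4 ± 3.21 FPKM in shCAVIN1 and 26.6 ± 2.67 FPKM in shCtrl and did not pass. Its value is uncertain, since it overlaps CNTNAP1 on the opposite strand and the strand setting of the counting is not given in the sources used here. ACKR4, another scavenging receptor, was below the filter at 0.298 to 0.363 FPKM in shCAVIN1 and 0.286 to 0.774 FPKM in shCtrl. CXCR3, which shares the ligand CXCL11 with ACKR3, stayed at or below 0.0322 FPKM in shCAVIN1 and 0.268 FPKM in shCtrl, and CXCL11 itself at or below 0.0806 FPKM in shCAVIN1 and 0.0321 FPKM in shCtrl.

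The genes around the CXCL12 axis were followed with 8 lists of 137 genes, all of which had a row, and 73 of which were tested. In these, 26 were higher (35.6%) and 20 lower (27.4%) in shCAVIN1, beside 27.3% and 28.2% of all tested genes. The median log2 difference was -0.02 over the lists and -0.02 over all tested genes. After rescaling to TPM, which gives each library the same sum, 20 were higher and 7 lower, or 74.1% of calls higher against 56.5%. The same rescaling moved the median log2 difference over all tested genes to 0.09. The split of all called genes was not computed under TPM, so the 74.1% is not read as a trait of the lists.

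**Figure D4:**
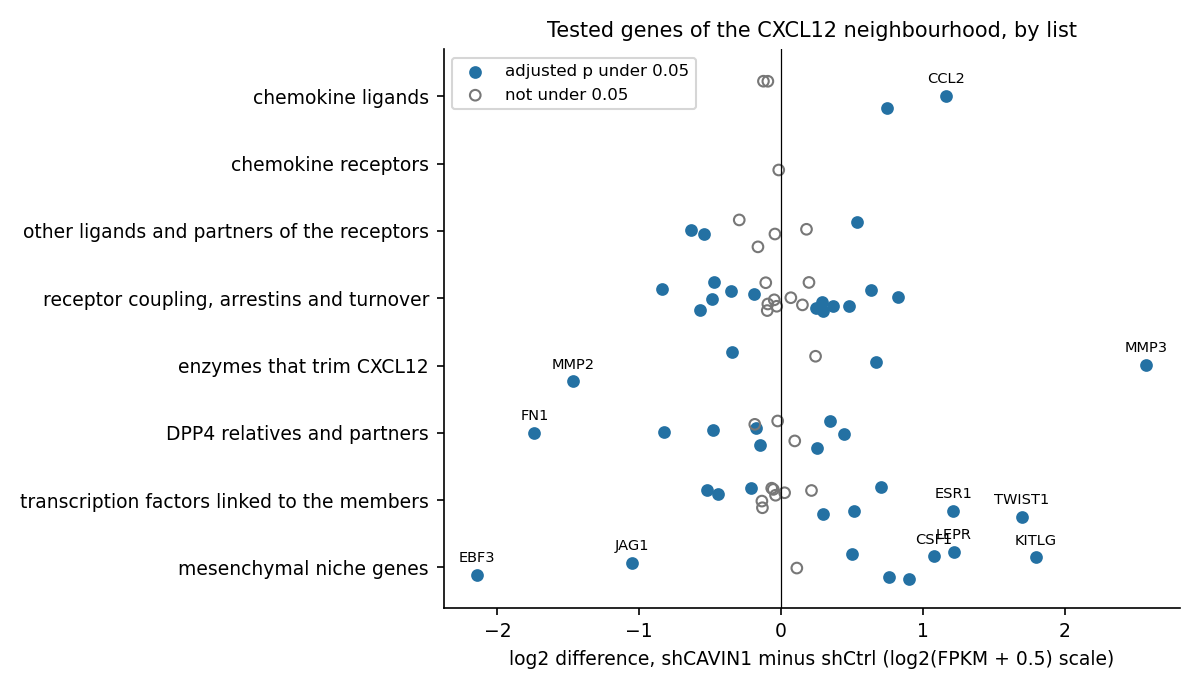
Log2 difference (shCAVIN1 minus shCtrl, log2(FPKM + 0.5) scale) of the 73 tested genes in 8 lists around CXCL12, with filled points for an adjusted p under 0.05 and names for called genes with a log2 difference of at least 1 in size. MMP3 (2.58) lies farthest to the right and EBF3 (-2.14) farthest to the left.

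Of 7 tested genes for other ligands and partners of the CXCL12 receptors, 1 was higher (14.3%) and 2 were lower (28.6%). The other 4 did not pass, and the shares over all tested genes were 27.3% higher and 28.2% lower. Adrenomedullin (ADM), a peptide that ACKR3 also clears, fell to 72.2 ± 0.751 FPKM in shCAVIN1, against 106 ± 10.3 FPKM in shCtrl (log2 -0.54, limma adjusted p = 0.00123). Of the accessory proteins of its own receptor, RAMP2 fell to 57.1% of the shCtrl level (adjusted p = 0.00427) and RAMP1 rose 1.47-fold (0.00372), and the value of RAMP2 is uncertain because RAMP2-AS1 overlaps it on the opposite strand. MIF, a cytokine that also binds CXCR4 and ACKR3, had the highest level, at 896 ± 59.1 FPKM in shCAVIN1 and 1002 ± 17.3 FPKM in shCtrl, and did not pass. CD74, its other receptor, stayed at or below 0.354 FPKM in shCAVIN1 and 0.179 FPKM in shCtrl.

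Of 21 tested genes that couple, silence or sort CXCR4, 7 were higher (33.3%) and 6 lower (28.6%), shares near those over all tested genes (27.3% and 28.2%). Of the kinases that phosphorylate CXCR4, GRK3 (listed as ADRBK2) fell to 45.7% of the shCtrl level, at 0.924 to 1.08 FPKM in shCAVIN1, against 2.03 to 2.37 FPKM in shCtrl (log2 -0.84, limma adjusted p = 0.000355). GRK6 rose 1.56-fold, to 46.2 ± 2.09 FPKM (adjusted p = 0.000257), and HGS, which sorts ubiquitinated CXCR4 to lysosomes, rose 1.41-fold (0.000835). The arrestins ARRB1 (4.04 ± 0.440 FPKM in shCAVIN1 and 3.58 ± 0.0574 FPKM in shCtrl) and ARRB2 (28.3 ± 0.316 and 29.3 ± 2.64 FPKM), to which ACKR3 couples, did not pass.

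Besides DPP4, matrix metalloproteases can trim CXCL12 at its start. Of 5 tested enzymes, 2 were higher (40%) and 2 lower (40%), beside 27.3% and 28.2% over all tested genes. MMP3 rose to 4.70 ± 0.0821 FPKM in shCAVIN1, against 0.372 ± 0.0155 FPKM in shCtrl (log2 2.58, limma adjusted p = 4.46e-06). MMP2 fell to 3.40 ± 0.0938 FPKM in shCAVIN1, against 10.3 ± 0.519 FPKM in shCtrl (log2 -1.47, adjusted p = 1.3e-05). MMP14 fell to 78.5% of the shCtrl level, and the lysosomal protease CTSB rose 1.60-fold. CPM, which removes the last residue of a CXCL12 splice form, did not pass, at 0.990 ± 0.0352 FPKM in shCAVIN1 and 0.762 ± 0.110 FPKM in shCtrl. The leukocyte proteases CTSG and ELANE, also known to cut CXCL12, were listed at 0 in 6 and in 4 of the 6 libraries.

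Relatives and partners of DPP4 included 3 higher (27.3%) and 5 lower (45.5%) genes of 11 tested, beside 27.3% and 28.2% over all tested genes. Fibronectin (FN1), a matrix protein that DPP4 binds, fell to 57.8 ± 5.41 FPKM in shCAVIN1, against 199 ± 57.8 FPKM in shCtrl (log2 -1.74, limma adjusted p = 0.000792). Adenosine deaminase (ADA), which binds human DPP4 at the cell surface, rose 1.40-fold, to 4.88 to 5.74 FPKM in shCAVIN1 libraries, against 3.41 to 4.07 FPKM in shCtrl libraries, with some fragments possibly shared with the overlapping PKIG (limma adjusted p = 0.00564). The prolyl carboxypeptidase PRCP fell to 55.8% and the cytosolic relative DPP8 to 70.6% of the shCtrl level. The relatives DPP7 and DPP9 did not pass.

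Factors linked in the literature to transcription of these 4 genes showed 5 rises (33.3%) and 3 falls (20%) among 15 tested. The shares over all tested genes were 27.3% and 28.2%. ESR1, the estrogen receptor that is known to induce CXCL12 in breast cancer cells, was higher at 1.09 ± 0.0478 FPKM in shCAVIN1 and 0.186 ± 0.0160 FPKM in shCtrl (log2 1.22, limma adjusted p = 0.00012). HIF1A, the hypoxia factor known to raise CXCR4 and CXCL12, fell to 69.0% of its shCtrl level, to 29.4 ± 0.679 FPKM (adjusted p = 0.00105). NRF1 and YY1, known as activator and repressor of the CXCR4 promoter, did not pass, at 5.95 ± 0.410 and 63.3 ± 1.68 FPKM in shCAVIN1 and 6.25 ± 0.259 and 62.2 ± 2.79 FPKM in shCtrl. TWIST1, a mesenchymal transcription factor, rose 3.43-fold (log2 1.70). Of the NF-kB subunits, NFKB1, RELB and NFKB2 rose 1.46-fold, 1.98-fold and 1.25-fold, while RELA fell to 85.7% of the shCtrl level. The call of RELA (limma adjusted p = 0.0205) was lost in 5 of 16 alternatives, and that of NFKB2 (limma adjusted p = 0.00829) in 1. The part of these factors in the levels of the 4 genes was not tested.

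Genes that mark CXCL12-rich mesenchymal niche cells, best known from bone marrow, were tested for 9 list members. Of these, 6 rose (66.7%) and 2 fell (22.2%), beside 27.3% and 28.2% over all tested genes. The median log2 difference was 0.76, against -0.02 over all tested genes. The other 6 list members were below the filter. Among them, without a test, EBF1, NES and PDGFRA were lower in every shCAVIN1 library than in any shCtrl library, and IL7, ANGPT1 and SPP1 were higher. The groups also did not overlap for 64.6% of all tested genes, and these values are low, so nothing is read from this separation. KITLG, the stem cell factor, rose to 13.9 ± 0.480 FPKM in shCAVIN1, against 3.64 ± 0.160 FPKM in shCtrl (log2 1.80, limma adjusted p = 6.9e-06). The leptin receptor LEPR rose 2.68-fold, although its fragments may be shared with the overlapping LEPROT, and the growth factor CSF1 2.36-fold. The adhesion molecule VCAM1, the ectoenzyme NT5E and the transcription factor FOXC1 rose 1.89-fold, 2.03-fold and 1.74-fold. EBF3, a transcription factor of CXCL12-rich marrow cells, fell to 0.0750 ± 0.0195 FPKM in shCAVIN1, against 2.04 ± 0.136 FPKM in shCtrl (log2 -2.14, adjusted p = 1.96e-05), and the Notch ligand JAG1 to 43.6% of the shCtrl level.

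Among the called list genes, ESR1, EBF3, MMP3 and VCAM1 averaged under 0.5 FPKM in 1 group. They passed the filter on low values only through the group where they were high, so their calls are not independent of it. The counts and shares given for their lists include these calls. Apart from RELA and NFKB2, 4 of the list genes named above lost their call in 1 of 16 alternatives, the rescaling to TPM. Their adjusted p ranged over the alternatives from 9.84e-05 to 0.149 for ADM, 0.000137 to 0.146 for HIF1A, 0.000504 to 0.0863 for DPP8 and 0.00176 to 0.331 for MMP14, always with a negative log2 difference. Values are less certain for genes that overlap another gene with a row on the opposite strand, because the strand choice of the counting is unknown. Here these are CXCL11, CXCL16, ACKR4, ADA, CPM, RAMP2, GRK6, HGS, MMP3, PRCP, HIF1A, ESR1 and IL7.

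The genes nearest CXCL12 in pattern were found as the smallest Euclidean distance over the 6 libraries between log2(FPKM + 0.5) values, each less its shCtrl mean. For CXCL12 the nearest were KLHL4, TIAM1, SGCD, SH3BGRL and CNTN1, at distances of 0.375 to 0.437. SH3BGRL had the nearest level too, at 2.02 ± 0.0819 FPKM in shCAVIN1 and 24.6 ± 2.56 FPKM in shCtrl, or 8.23% of the shCtrl level. SGCD was listed at 0 in all 3 shCAVIN1 libraries. For CXCR4 the nearest were PCOLCE2, LOC100507599, SCARNA9, PROS1 and KLHL13 (0.15 to 0.178), for ACKR3 they were C2orf47, MT2A, RPLP2, FTO-IT1 and POLR2M (0.0931 to 0.111), and for DPP4 they were SLC38A4, BDNF, MYPN, SPATA18 and GAS6 (0.0578 to 0.105). MT2A and RPLP2 are uncertain, since fragments may be shared with related genes or pseudogenes. None of the 4 genes shared a nearest gene with another, which follows from their unlike log2 differences. The distance is mostly set by the difference between the groups, so it orders genes by how far they moved on the log2(FPKM + 0.5) scale. That scale limits falls toward 0. TIAM1, CNTN1 and SGCD stood at 1.26%, 1.30% and 0% of the shCtrl level, against 7.95% for CXCL12. By ratio of FPKM they were thus less alike to it than KLHL4 (5.83%) and SH3BGRL (8.23%).

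The protein-coding genes within 500 kb of each gene were also compared, beside 27.3% higher and 28.2% lower over all tested genes, and the numbers of neighbours are too small to read a share from. CXCL12 had 1 such neighbour, C10orf142, to which no row was matched. Around CXCR4, 4 of 5 neighbours were tested and 3 were lower (DARS, MCM6 and UBXN4). Around ACKR3, the single tested neighbour, AGAP1, was lower, and around DPP4, 3 of 6 were tested, with IFIH1 and FAP higher and GCA lower. None of these reached a log2(FPKM + 0.5) difference of 1 in size, and they are named after their values were seen. IFIH1, a sensor of viral RNA, stood at 1.08 ± 0.0802 FPKM in shCAVIN1 and 0.476 ± 0.0386 FPKM in shCtrl, a ratio of 2.28 without the pseudocount. With a shCtrl mean under 0.5 FPKM, IFIH1 passed the filter on low values only through shCAVIN1. FAP, the fibroblast activation protease near DPP4 and its closest relative, stood at 1.08 ± 0.188 FPKM in shCAVIN1 and 0.739 ± 0.0633 FPKM in shCtrl, a ratio of 1.46 against 2.87 for DPP4. The call of FAP was weak, with a limma adjusted p of 0.0392, and was lost in 6 of 15 alternatives, over which it ranged from 0.0246 to 0.114.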

How the data were processed

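Total RNA of WPMY-1 cells was sequenced from an Illumina stranded kit, per the labels' protocols. The authors deposited 1 table of FPKM values holding 6 library columns. GRCh38 was the build, and bcl2fastq 2.17.1.14, TopHat2 and TopHat were among the tools, per the submitters' processing notes. What quantified the genes, with which annotation, filters and strand choice, is not given in the sources used here. FPKM depends on the most abundant RNAs: the 10 highest rows held 21.1% to 42.55% of a library's sum, which ran from 758837 to 1043843.

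Genes with a mean of at least 0.5 FPKM over 6 libraries (13941) were tested by limma (version 3.58.1, under R 4.3.3). The model held the group term and no covariate, was fitted to log2(FPKM + 0.5) and let the prior variance follow the mean level, with Benjamini-Hochberg adjustment over all of them and a threshold of 0.05. The summed level of the prostate epithelial markers is not reported here. Older symbols matched 4 of 137 list genes through RefSeq synonyms. List genes were named where called with a log2 difference of at least 1 in size, with up to 3 more of lowest adjusted p per list (up to 2 by level where none passed). Further list genes (such as MIF, CCL5, the arrestins, NRF1 and CXCR3) were named for their role after values were seen. The 4 genes and the lists were chosen with earlier results of these data known. Alternatives were other pseudocounts, filters, scalings and variances, a replicate block, and leaving out each library.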

Additional observations from a re-analysis of the deposited data

How the results depend on the processing

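CXCL12, CXCR4 and ACKR3 stayed lower and DPP4 higher in shCAVIN1 under all 13 alternatives run for them. Most of these could not have reversed a direction, so the count is no measure of robustness. The libraries of the groups do not overlap for these genes, so another pseudocount or leaving out a library keeps the direction. The replicate block returns the same difference by design. With a pseudocount of 0.1 or 1 in place of 0.5, the log2 differences were -3.61 and -3.20 for CXCL12, -1.12 and -0.70 for CXCR4 and 1.37 and 0.72 for DPP4, since a larger pseudocount shrinks low genes. DPP4 stood at 1.10 after rescaling to TPM and at 1.042 after quantile normalization. Leaving out 1 library gave -3.52 to -3.29 for CXCL12, -0.98 to -0.81 for CXCR4, -0.72 to -0.56 for ACKR3 and 0.94 to 1.01 for DPP4.

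After rescaling to TPM, 3496 genes were called against 7734, and 7 list genes were lower against 20. On the log2 scale it put the median over tested genes at 0.09, against -0.02. Of the 46 list genes called at first, 26 kept their call and 20 lost it, and the cause was not tested. Without 1 library, 24 to 29 list genes were higher and 15 to 23 lower.

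Same-numbered libraries showed little shared deviation (Pearson r of -0.03 to 0.09 across genes). With 3 libraries per group, this cannot settle whether the numbers pair them. With the replicate block, 7167 genes were called, and 26 list genes were higher and 19 lower. FPKM without counts gives no interval for counting error, which limits CXCR4 and DPP4 most.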

Other observations

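Some list genes below the filter on low values stood apart between the groups without a test. Over all tested genes, the groups did not overlap for 64.6%. CCL11, an eosinophil chemokine that DPP4 is known to trim, was at 0.836, 0.700 and 0.878 FPKM in shCAVIN1 replicates 1 to 3, and in shCtrl it was at 0.105 FPKM in replicate 2 and listed at 0 in the other 2 libraries. PDGFRA, a growth factor receptor of fibroblasts, stood at 0.129 to 0.170 FPKM in shCAVIN1 and 0.524 to 0.637 FPKM in shCtrl. EBF1, a relative of EBF3, stood at 0.00715 to 0.0176 FPKM in shCAVIN1 and 0.146 to 0.252 FPKM in shCtrl. These genes were picked after their values were seen.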
